A study of Mus musculus with 6 samples.

Results

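Mitochondrial ribosomal proteins are the proteins of the mitoribosome, the ribosome inside mitochondria. Their genes were taken as every row of the deposited table whose gene name begins with Mrpl or Mrps and a number, which gave 78 of 34745 rows, 48 named for the large subunit and 30 for the small subunit. RNA sequencing compared livers of mice labelled Sox9HKO (HKO, 3 libraries) with livers of mice labelled Sox9f/f (WT, 3 libraries). Every sample also carries the cell type label hepatocyte, which is checked on marker genes further on. Both groups were C57BL/6, 12 weeks old, and sampled 48 h after partial hepatectomy (PHx), the removal of part of the liver that starts its regrowth. Sox9 encodes a transcription factor active in the biliary lining and in hepatocytes that take on progenitor features. The sources used here do not state how or in which cells the Sox9 allele was deleted. Nor do they say whether the 3 libraries of a group are 3 mice, so the p-values rest on a spread that may be technical. The question asked of each gene is whether its mRNA level after PHx differed with the Sox9 genotype.

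The mitoribosome makes the few respiratory chain proteins that are encoded by mitochondrial DNA. Its RNAs are transcribed in the mitochondrion, while all of its proteins are encoded in the nucleus, made in the cytosol and imported. The small subunit binds the mRNA and reads its codons, and the large subunit joins the amino acids and passes the new chain through an exit tunnel to the inner membrane. Many of the proteins descend from those of the bacterial ribosome, and the others were added during the evolution of mitochondria. Liver cells are rich in mitochondria, and after PHx they re-enter the cell cycle.

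Some of these genes share a short start region with a gene on the opposite strand, and 3 such regions are printed to show the DNA between pairs of genes that are compared further on. The first 2 lie at the genes that were called between HKO and WT (see the values of Mrps12 and Mrps27). The third lies at Mrpl57, whose neighbour Ska3 was called while Mrpl57 was not. Each sequence is the DNA between the pair of start sites in RefSeq, build GRCm38.p6, read 5′ to 3′ on the strand of the ribosomal gene. The positions are chr7:28741822-28741967 (minus strand) for Mrps12, chr13:99344679-99344785 (plus strand) for Mrps27 and chr14:57826164-57826238 (plus strand) for Mrpl57. Capitals mark matches to the 5 motifs searched, which are described with the start regions, and the Mrps12 sequence has no match.
Mrps12 and Sars2: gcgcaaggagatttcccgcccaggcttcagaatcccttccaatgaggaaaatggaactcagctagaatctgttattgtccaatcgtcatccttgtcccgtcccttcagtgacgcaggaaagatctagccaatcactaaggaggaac
Mrps27 and Ptcd2: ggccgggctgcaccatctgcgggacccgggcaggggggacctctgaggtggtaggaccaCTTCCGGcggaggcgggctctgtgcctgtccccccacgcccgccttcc
Mrpl57 and Ska3: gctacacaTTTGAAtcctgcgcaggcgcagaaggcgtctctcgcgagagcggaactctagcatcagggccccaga

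The 6 libraries held 16659778 to 21168233 counts, and the 78 genes took 0.149% to 0.189% of them in HKO and 0.162% to 0.179% in WT. Sox9 itself was at 6.34, 4.30 and 4.78 CPM in HKO and 6.94, 13.7 and 11.4 CPM in WT (CPM, reads relative to the TMM-scaled library size), with no overlap between the groups (log2 fold change -1.05, SE 0.27, edgeR adjusted p = 0.0284). Sox9 missed the threshold without HKO 2 (adjusted p = 0.0503), HKO 3 (0.0862), WT 2 (0.0929) or WT 3 (0.0975). The label hepatocyte was checked on 6 hepatocyte genes, whose summed level was 67660 to 68396 CPM in HKO and 75684 to 93048 CPM in WT. Alb, for albumin, made up most of that sum, at 49761 to 53180 CPM in HKO and 61219 to 77671 CPM in WT. Of the 6 log2 fold changes 3 were above 0 and 3 below (median 0.10), with 1 gene called higher (Cps1) and 1 lower (Serpina1a), calls that were lost without HKO 3 or WT 3 in both and without WT 1 in Cps1. Markers of other cell types differed between libraries. All 9 macrophage markers were higher in HKO (summed 244 to 380 CPM in HKO and 163 to 174 CPM in WT). HKO 2 stood apart from the other libraries: 9 endothelial and 9 stellate or matrix markers summed to 531 and 525 CPM there, against 171 to 206 and 122 to 138 CPM in the other HKO libraries and 113 to 163 and 80.9 to 121 CPM in WT. The 12 mitotic markers all fell in HKO (median log2 fold change -1.98; 5 passed without HKO 1, 7 without HKO 3 and 4 without WT 3), and their summed level was 78.1 to 268 CPM in HKO and 541 to 648 CPM in WT. The 7 bile duct markers summed to 34.7, 52.7 and 29.8 CPM in HKO and 57.8, 157 and 136 CPM in WT, without overlap and mostly from Spp1, which fell in HKO (log2 fold change -2.03, adjusted p = 0.0117). Only 2 of the 7 had enough counts to be tested, and the other of these was not called (log2 fold change -0.15). The part of these shifts in the results below was not tested, and in such bulk samples fewer cells of a type and less RNA per cell cannot be told apart.

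The mRNAs of the mitoribosome differed little between HKO and WT livers. Of the 78 genes 77 had enough counts to be tested, since the pseudogene Mrps36-ps3 was at 0 in every library. Only 2 of the 77 (2.6%) passed an adjusted p of 0.05, and both fell in HKO: Mrps12 and Mrps27, of the small subunit. None of the 48 large subunit genes passed, and 2 of 29 small subunit genes did (6.9%). The count over both subunits was 4 without HKO 1, 1 without HKO 2 and 0 without HKO 3, WT 2 or WT 3, all lower in HKO. In the same edgeR fit 23.2% of all 12556 genes tested were called, 12.1% higher and 11.2% lower in HKO, so the share among these 77 genes was below the background. Without adjustment, 13 of the 77 genes had a p below 0.05 (5 higher and 8 lower), against 38.5% of all genes.

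The fold changes were small. The median log2 fold change was -0.049 for the large subunit, -0.0042 for the small subunit and 0.019 for all genes tested. The median size of the log2 fold change, whatever its sign, was 0.12 in the large and 0.22 in the small subunit, against 0.32 in all genes and 0.31 in the 9854 other genes of the same range of CPM. No estimated change passed 1.5-fold, and the log2 fold changes ran between -0.56 and 0.56. The 95% interval lay within a 2-fold change in either direction for 76 of the 77 genes and within a 1.5-fold change for 59. The exception to the first was Mrpl14, with an upper end of 1.16 on the log2 scale. In 19 of the 77 genes all HKO libraries lay on the same side of all WT libraries (24.7%, 8 with HKO above and 11 with HKO below). This held for 44.2% of all genes tested.

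**Figure D1:**
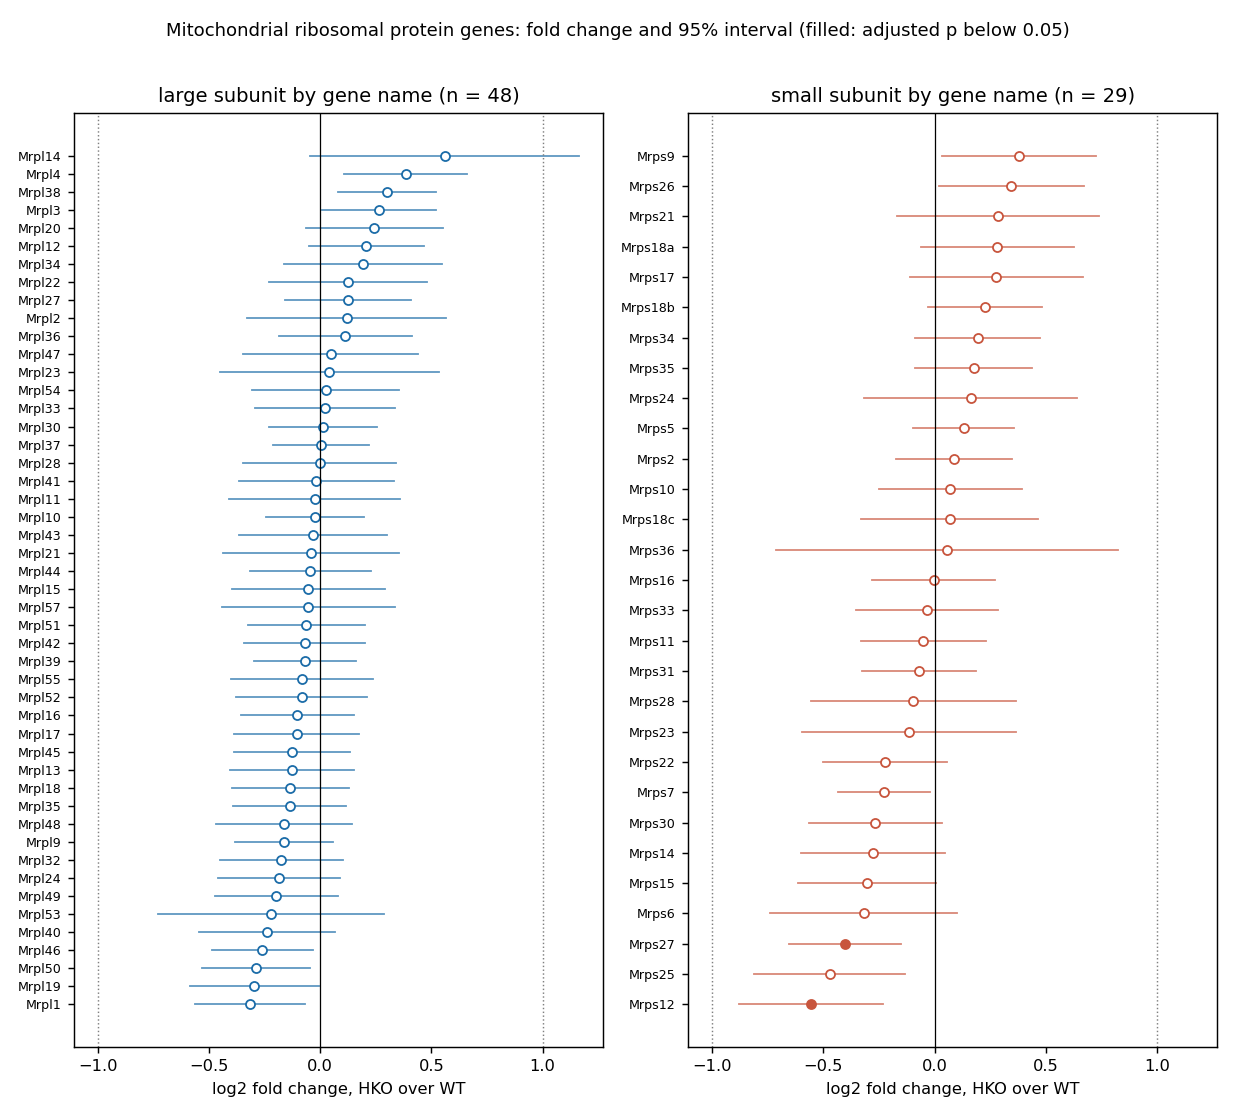
Log2 fold change of HKO over WT (x axis) for each of the 48 large subunit genes (left) and 29 small subunit genes (right), with bars for the 95% interval and filled points for genes with an edgeR adjusted p below 0.05. The points lie between -0.56 and 0.56, the 2 filled points are Mrps12 and Mrps27, and the dotted lines mark a 2-fold change in either direction.

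Within the large subunit, genes were grouped by the place of their protein in the structure. The stalk, which recruits the translation factors that use GTP, is built by Mrpl10, Mrpl11 and Mrpl12, and none of these 3 genes passed the test. Mrpl12 was at 86.8, 71.6 and 68.3 CPM in HKO and 63.6, 65.2 and 67.6 CPM in WT. Its groups did not overlap, yet HKO 3 lay just above WT 3 and the difference was not called (log2 fold change 0.21, SE 0.11, adjusted p = 0.212). Mrpl10 and Mrpl11 had log2 fold changes of -0.02 each. The exit tunnel genes were Mrpl17, Mrpl22, Mrpl23, Mrpl24, Mrpl45 (which holds the ribosome at the inner membrane) and Mrpl47. None of these 6 passed, none had groups without overlap, and their log2 fold changes ran between -0.19 and 0.12. The list may not be complete. It leaves out Mrpl4, whose bacterial homolog reaches into the tunnel (log2 fold change 0.38, edgeR adjusted p = 0.0528, groups without overlap). Gadd45gip1, whose protein lies beside the tunnel, is also left out (-0.41, edgeR adjusted p = 0.0514). The central protuberance, where the subunits meet above the tRNAs, was covered by Mrpl18, Mrpl27, Mrpl38, Mrpl40, Mrpl46 and Mrpl48. Their log2 fold changes ran between -0.26 for Mrpl46 and 0.30 for Mrpl38, and none of the 6 passed.

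The 2 genes that fell belong to different regions of the small subunit. Mrps12 (ENSMUSG00000045948, chromosome 7, 28739641 to 28741820, minus strand, protein-coding, GRCm38) encodes a homolog of the bacterial protein S12, which lines the site where codon and tRNA are matched. It was at 12.6, 10.99 and 9.34 CPM in HKO and 15.2, 17.1 and 16.0 CPM in WT. Every HKO library lay below every WT library, and HKO 3 was the lowest. The mean was 10.99 ± 1.64 CPM over the HKO libraries and 16.1 ± 0.96 CPM over the WT libraries (SD, n = 3 each), which puts HKO at 68.04% of WT (log2 fold change -0.56, SE 0.14, edgeR adjusted p = 0.0267). Mrps12 no longer passed without HKO 3 (adjusted p = 0.0743), without WT 2 (0.0860) or without WT 3 (0.0867).

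Mrps27 (ENSMUSG00000041632, chromosome 13, 99344786 to 99415561, plus strand, protein-coding) encodes an RNA-binding protein of the small subunit with no bacterial counterpart. It was at 20.9, 17.3 and 19.1 CPM in HKO and 25.8, 25.5 and 24.4 CPM in WT. The WT libraries lay close together, and all HKO libraries lay below them. HKO was at 75.8% of WT (19.1 ± 1.78 CPM in HKO libraries and 25.2 ± 0.75 CPM in WT libraries, SD, n = 3 each; log2 fold change -0.40, SE 0.11, edgeR adjusted p = 0.0337). This call was lost without HKO 2, HKO 3, WT 1, WT 2 or WT 3 (adjusted p = 0.0824, 0.0832, 0.0842, 0.0970 and 0.0892), with no filter on low counts (adjusted p = 0.0553) and with the replicate block (0.0639). An exon of Mrps27 overlaps the gene 6430562O15Rik on the opposite strand. The protocol names no step that marks the strand, so reads of such a pair cannot be told apart. For both genes the two-sided exact permutation test gave p = 0.1, the smallest that 3 libraries against 3 allow.

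The next 10 genes by p-value did not pass, and they were split in direction: 5 had higher means in HKO and 5 had lower means. In each of them the HKO and WT libraries did not overlap, which is likely for genes picked by p-value in this same comparison. In the small subunit, Mrps25, a mitochondria-specific protein, was at 11.8, 9.48 and 9.66 CPM in HKO and 15.4, 15.1 and 12.3 CPM in WT (log2 fold change -0.47, adjusted p = 0.0532). HKO 1 and WT 3 lay close together there, and without HKO 1 the gene passed (adjusted p = 0.0419). Exons of Mrps25 overlap Nr2c2 on the other strand. Mrps9, a protein of the small subunit head, was at 14.5, 12.4 and 12.8 CPM in HKO and 8.61, 11.7 and 10.1 CPM in WT (log2 fold change 0.38, adjusted p = 0.103). Mrps26 was at 15.6, 13.7 and 11.6 CPM in HKO and 10.3, 10.4 and 11.3 CPM in WT (log2 fold change 0.35, adjusted p = 0.114). Both had WT libraries just under the lowest HKO library. Mrps7, also a head protein, was at 51.0, 46.2 and 46.6 CPM in HKO and 53.9, 57.6 and 56.9 CPM in WT (log2 fold change -0.23, adjusted p = 0.102). It lies 2.82 Mb from Sox9 on chromosome 11, and its exons overlap Gga3 and Mif4gd on the opposite strand. The 7 genes grouped here as head genes were Mrps7, Mrps9, Mrps10, Mrps14, Mrps24, Mrps33 and Mrps35, a list that may not be complete. Of their log2 fold changes 4 were above 0 and 3 below, and none passed.

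In the large subunit, Mrpl4, whose bacterial homolog reaches into the exit tunnel, was at 26.6, 22.6 and 22.9 CPM in HKO and 17.9, 20.2 and 17.1 CPM in WT (log2 fold change 0.38, SE 0.12, adjusted p = 0.0528). It missed the threshold narrowly, with all HKO libraries above all WT libraries. Mrpl38, of the central protuberance, was at 50.2, 45.3 and 43.7 CPM in HKO and 38.4, 38.1 and 36.5 CPM in WT (log2 fold change 0.30, SE 0.09, adjusted p = 0.0550). It lies 3.34 Mb from Sox9 on chromosome 11. Mrpl3, whose bacterial homolog sits near the site of peptide bond formation, was at 18.2, 18.4 and 16.3 CPM in HKO and 13.9, 15.4 and 14.7 CPM in WT (log2 fold change 0.26, adjusted p = 0.122). Each of these 3 genes had its higher mean in HKO.

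The other 3 large subunit genes had lower means in HKO. Mrpl1, whose bacterial homolog forms the side arm that releases spent tRNA, was at 22.7, 19.5 and 19.2 CPM in HKO and 25.4, 25.3 and 25.6 CPM in WT (log2 fold change -0.31, adjusted p = 0.0683). Its WT libraries were the most alike of all 77 genes, with a coefficient of variation of 0.459%, and without HKO 1 it passed (adjusted p = 0.0381). Mrpl50, a mitochondria-specific protein, was at 45.7, 42.3 and 43.6 CPM in HKO and 47.6, 54.2 and 58.9 CPM in WT (log2 fold change -0.29, adjusted p = 0.0842), and it passed without WT 1 (adjusted p = 0.0496). Mrpl46 was at 16.5, 16.8 and 15.9 CPM in HKO and 19.6, 20.3 and 19.2 CPM in WT (log2 fold change -0.26, adjusted p = 0.0912). Exons of Mrpl46 and of the small subunit gene Mrps11 overlap each other on opposite strands, and Mrps11 had a log2 fold change of -0.05.

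**Figure D2:**
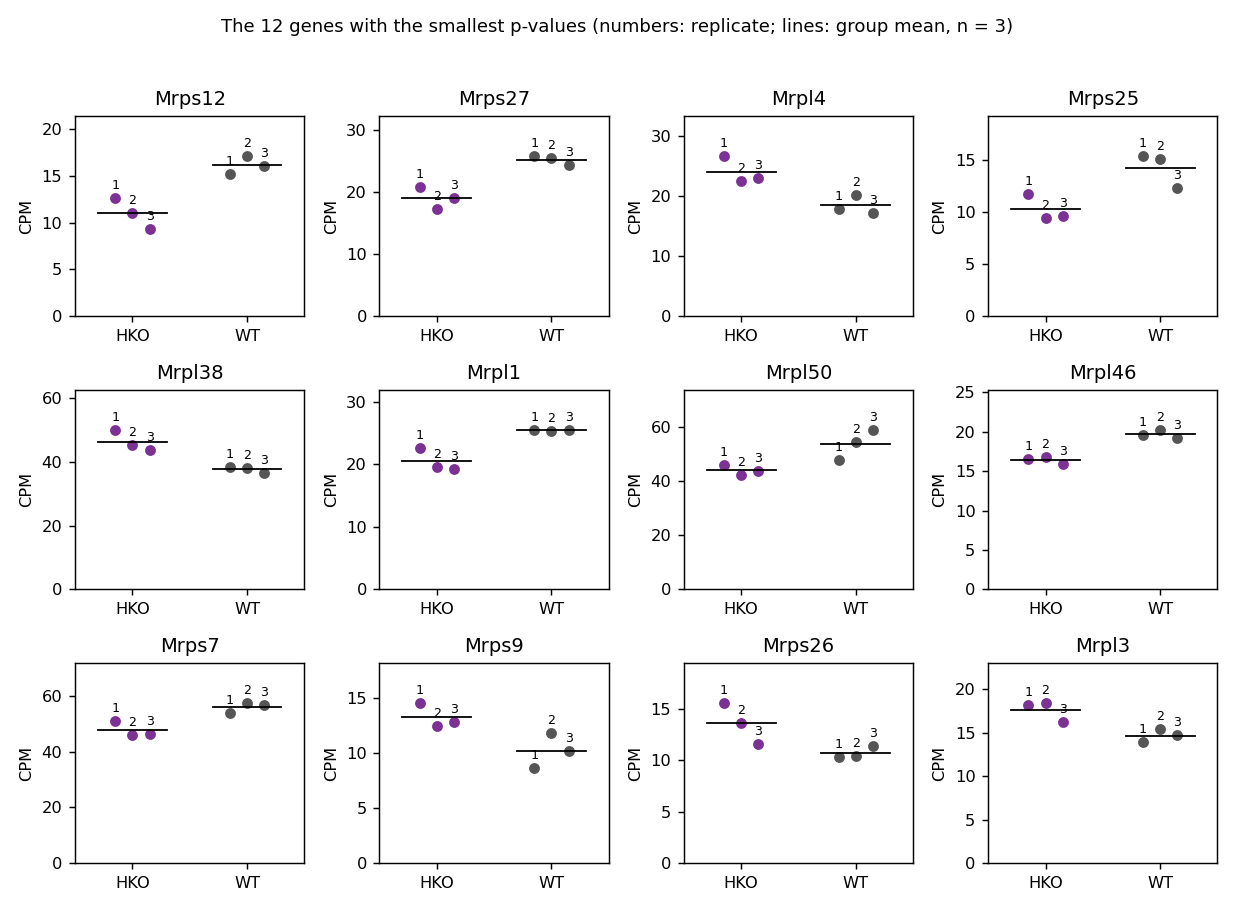
Level in CPM (y axis, starting at 0) in each HKO and WT library for the 12 genes with the smallest p-values, with a line at each group mean (n = 3) and the replicate number above each point. HKO and WT points do not overlap in any of the 12 panels, with HKO below WT in 7 and above WT in 5. The genes were picked by p-value in this same comparison, which makes such separation likely.

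A few genes carry names that differ from the place of their protein. Mrps18a, Mrps18b and Mrps18c are 3 relatives of bacterial S18. The proteins of Mrps18b and Mrps18c sit in the small subunit, and that of Mrps18a in the large subunit. Mrps18b was at 28.0, 23.3 and 24.3 CPM in HKO and 22.3, 20.7 and 21.5 CPM in WT, without overlap (log2 fold change 0.23, adjusted p = 0.171). Mrps18a and Mrps18c overlapped between the groups (log2 fold changes 0.28 and 0.07). The protein of Mrps30 also sits in the large subunit, and the gene had a log2 fold change of -0.27 (adjusted p = 0.169). Mrps36 encodes a subunit of the 2-oxoglutarate dehydrogenase complex, an enzyme of the citric acid cycle. It had 28, 18 and 29 counts in HKO and 18, 29 and 18 counts in WT, too few to place its fold change (95% interval -0.71 to 0.83 on the log2 scale). Sorting the genes by structure gave 0 of 50 called in the large subunit and 2 of 26 in the small one.

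Both subunits summed to about the same level in HKO and WT. The 48 large subunit genes together were at 1267, 1093 and 1065 CPM in HKO and 1154, 1142 and 1191 CPM in WT, which gives means of 1141 ± 110 CPM over HKO and 1162 ± 25.6 CPM over WT libraries (SD, n = 3 each). The small subunit genes together were at 574, 502 and 501 CPM in HKO and 540, 541 and 534 CPM in WT (means 526 ± 41.9 CPM in HKO and 539 ± 3.61 CPM in WT). In both subunits the WT libraries lay between HKO 1, which was above them, and the other HKO libraries, which were below. The sum of the small over the sum of the large subunit was 0.453, 0.460 and 0.471 in HKO and 0.468, 0.474 and 0.449 in WT. The means of this ratio, 0.461 ± 0.0088 in HKO and 0.463 ± 0.013 in WT, differed by less than the spread between libraries. On the deposited FPKM the ratio was 0.371, 0.395 and 0.385 in HKO and 0.404, 0.418 and 0.392 in WT, where HKO 2 and WT 3 overlap.

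**Figure D3:**
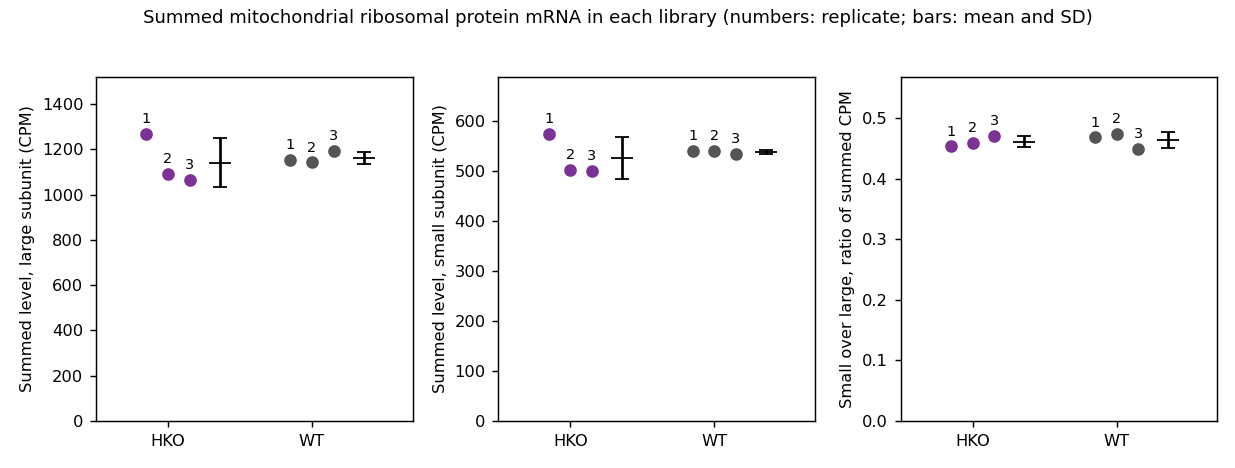
Summed level in CPM of the large subunit genes (left) and of the small subunit genes (middle), and the ratio of small over large (right), in each HKO and WT library, with the replicate number at each point and bars for the mean and SD (n = 3). HKO 1 is the highest library in both sums (1267 and 574 CPM), and the ratios lie between 0.449 and 0.474.

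HKO 1 stood above the other HKO libraries. It was the highest of the 3 in 65 of the 77 genes (84.4%), against 34.3% of all genes tested. Relative to the WT mean the median gene was at 0.10 in HKO 1, -0.09 in HKO 2 and -0.12 in HKO 3 on the log2 scale, for both subunits with the same signs. With HKO 1 left out, the large subunit had a median log2 fold change of -0.14 and the small one of -0.08. In that refit 4 of the 77 genes passed the test: Mrps12, Mrps25, Mrps27 and Mrpl1, all lower in HKO. Over all genes the same refit called 1100 higher and 989 lower in HKO. The median coefficient of variation of a gene over 3 libraries was 11.2% in HKO and 7.63% in WT, and over all genes tested 13.3% in HKO and 11.8% in WT. Cytosolic ribosomal protein mRNAs ran in the same order within HKO, with sums of 5793, 5278 and 4818 CPM in HKO and 5332, 5517 and 5651 CPM in WT.

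Levels of different genes are compared per length, in the deposited FPKM (reads relative to the length of a gene and to the depth). The 5 highest were all large subunit genes: Mrpl42, Mrpl12, Mrpl16, Mrpl34 and Mrpl50 (means ± SD of 3 libraries follow). Mrpl42, a mitochondria-specific protein, was at 47.6 ± 6.73 FPKM in HKO and 49.9 ± 2.83 FPKM in WT. Mrpl12 of the stalk was at 40.7 ± 6.36 FPKM in HKO and 35.2 ± 1.32 FPKM in WT. Mrpl42 stood above Mrpl12 beyond the spread in WT, and their HKO values, 42.0 to 55.1 and 36.01 to 47.9 FPKM, overlapped. Mrpl16, a homolog of bacterial L16, was at 29.4 ± 3.83 FPKM in HKO and 31.5 ± 2.12 FPKM in WT. Mrpl34, a homolog of bacterial L34, was at 29.5 ± 6.80 FPKM in HKO and 25.7 ± 2.94 FPKM in WT, and its HKO values overlapped those of Mrpl16. Mrpl50 was at 20.7 ± 1.82 FPKM in HKO and 25.3 ± 1.88 FPKM in WT. The 5 lowest tested genes were Mrps36 (0.492 ± 0.110 FPKM in HKO and 0.468 ± 0.109 in WT), Mrps10, Mrps17, Mrpl33 and Mrps9, the last 4 with means over all libraries of 1.18 to 1.48 FPKM. The median gene was at 8.61 FPKM in the large and 5.53 FPKM in the small subunit. The gene lengths behind the FPKM ran between 566 and 13836 bases, and 3 of 77 lay within 5% of the summed exon length in the GENCODE M21 annotation, so the order of the levels depends on the authors' lengths.

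By origin, 1 of 46 genes counted as having a bacterial homolog fell (Mrps12) and 1 of 30 counted as mitochondria-specific (Mrps27). The 30 include Mrps18a and Mrps18b, although these are relatives of bacterial S18. Both had log2 fold changes above 0 (0.28 and 0.23). In the genes with a bacterial homolog the median log2 fold change was -0.0033, with 24 below 0 and 22 above. In the mitochondria-specific ones it was -0.069, with 22 below 0 and 8 above. Over all genes tested 6072 were below 0 and 6484 above. The difference by origin was not tested. The genes lie on 17 chromosomes, with 10 on chromosome 11 and 8 on chromosome 17. Exons of 27 tested genes overlap a gene on the opposite strand and those of 8 overlap one on the same strand, so these values include reads that cannot be assigned with certainty. The sources used here do not state how reads matching several genes were counted, which touches genes with processed pseudogenes.

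Other genes of mitochondrial gene expression moved in both directions. Over 81 genes in 5 lists, 6 rose and 4 fell (12.3%), against the 23.2% of all genes, and their median log2 fold change was -0.09. Without HKO 1, HKO 3 or WT 3 there was 1 that rose, and without WT 1 or WT 2 there were 2. Those that fell numbered 1 without HKO 3, WT 1 or WT 3 and 2 without WT 2. None of 6 mitoribosome proteins under other names passed (median -0.22). The nearest of these was Gadd45gip1, a large subunit protein beside the exit tunnel, at 19.4, 15.9 and 14.7 CPM in HKO and 22.4, 22.1 and 22.2 CPM in WT (log2 fold change -0.41, adjusted p = 0.0514), and it passed without HKO 1 (0.0205). Its exons overlap another gene on the opposite strand. Among 17 translation factors 3 rose and 1 fell. Mtif2, the initiation factor that brings the first tRNA to the small subunit, fell to 23.5, 19.7 and 20.6 CPM in HKO, against 32.0, 33.8 and 30.2 CPM in WT (log2 fold change -0.59, SE 0.11, adjusted p = 0.00871), and it passed whichever library was left out. Lrpprc, which keeps mitochondrial mRNAs stable, was at 138, 119 and 143 CPM in HKO and 88.6, 106 and 99.4 CPM in WT (log2 fold change 0.45, adjusted p = 0.0240). Both genes had groups without overlap. Pdf, the deformylase that trims new mitochondrial proteins (0.89), and Rmnd1, an inner membrane protein needed for mitochondrial translation (0.39), rose as well, on log2 values that can hold reads of overlapping genes.

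Among 20 tRNA synthetase genes of mitochondria Iars2 rose (log2 fold change 0.48, adjusted p = 0.0121). Of 26 assembly factors 2 rose and none fell. These were Rbfa, which binds the immature small subunit (log2 fold change 0.61, adjusted p = 0.0225), and Ddx28, a helicase of large subunit assembly (0.51, adjusted p = 0.0497). Of 12 genes that transcribe or maintain mitochondrial DNA 2 fell: Ssbp1, which coats single-stranded mitochondrial DNA (-0.46, adjusted p = 0.0356), and Mgme1, a nuclease of its replication (-0.64, adjusted p = 0.0267). Of these genes Iars2 missed the threshold without WT 3 (adjusted p = 0.0636), while Lrpprc, Pdf, Rmnd1, Rbfa, Ddx28, Ssbp1 and Mgme1 passed in 0 to 2 of the 6 refits that left out 1 library. Exons of Iars2, Rbfa, Ddx28, Mgme1, Pdf and Rmnd1 overlap other genes on the opposite strand.

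The nuclear genes of the respiratory chain, which the mitoribosome complements with its own products, had a median log2 fold change of 0.30, which was 0.17 without HKO 1. Of 73 such genes 16 rose and none fell, and 40 had all HKO libraries above all WT libraries, against 22.6% of all genes tested. Examples were Ndufa6 of complex I, at 59.4, 47.2 and 51.1 CPM in HKO and 32.8, 35.9 and 34.0 CPM in WT (log2 fold change 0.62, adjusted p = 0.00777), and Cox7a2 of complex IV (0.59, adjusted p = 0.0215). Ndufa6 passed whichever library was left out, and Cox7a2 in 2 of the 6 refits. The share called higher, 21.9%, compares with 12.1% of all genes called higher and 23.2% called in either direction. The count was 5 without HKO 1, 10 without HKO 3 and 4 without WT 1. It was 3 without WT 2, 4 without WT 3 and 7 with the replicate block. Over all genes the number called higher fell too, from 1516 to 1100, 969, 1086, 952, 722 and 1245 in that order. The 13 mRNAs made from mitochondrial DNA summed to 118047, 276444 and 119099 CPM in HKO and 154021, 139111 and 155074 CPM in WT. HKO 2 lay above and the other HKO libraries below all WT libraries, and none of the 13 passed. Their median log2 fold change was 0.19 with all libraries and -0.26 without HKO 2, where 3 were called lower in HKO (mt-Nd4, mt-Co1 and mt-Atp8, adjusted p = 0.0458, 0.0398 and 0.0449). It was also 0.37 without HKO 1 and 0.40 without HKO 3. Cytosolic ribosomal proteins had 1 higher and 2 lower of 76 (median -0.02, median size of the log2 fold change 0.13), values close to those of the mitochondrial ones. The difference between these lists was not tested.

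**Figure D4:**
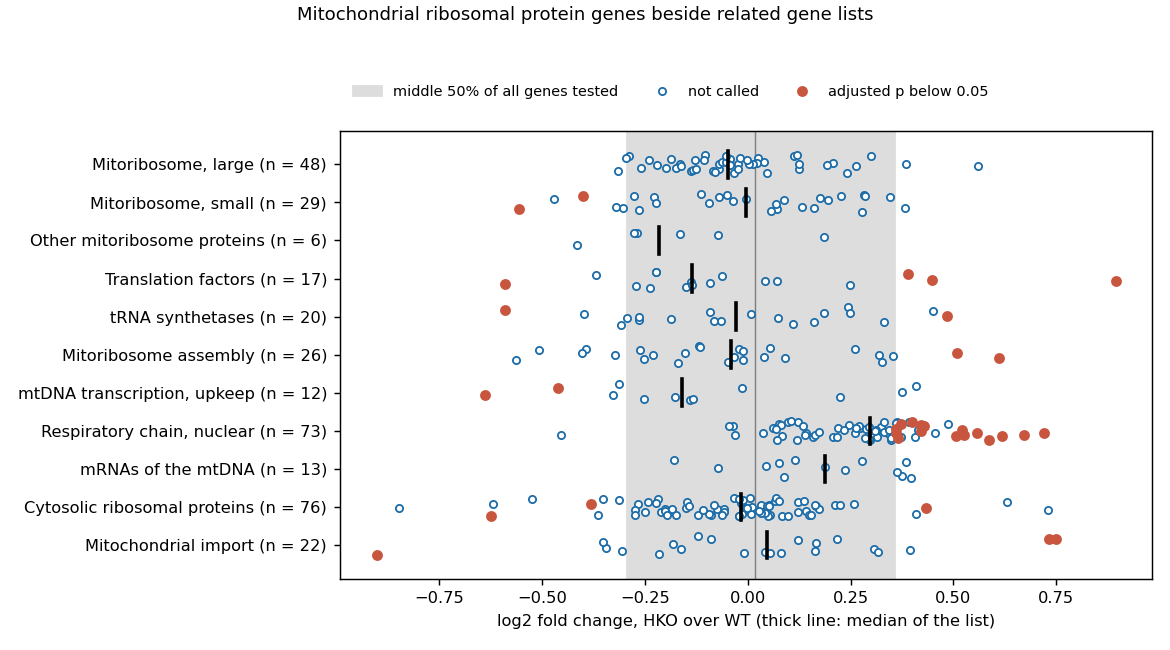
Log2 fold change of HKO over WT (x axis) for every tested gene of 11 lists (rows), with filled points for an adjusted p below 0.05, a thick line at each list's median and a grey band for the middle 50% of all genes tested. The large and small subunit lie close to 0 with 2 filled points, while the nuclear respiratory chain genes lie to the right of 0, with a median of 0.30.

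A number of these genes start beside a gene on the opposite strand. A protein-coding gene started head to head within 500 bases of 18 of the 77 genes (23.4%), against 9.99% of 11882 tested protein-coding genes. Of these 18 neighbours 2 were higher and 2 lower in HKO, a share near the 23.2% called among all genes. Ska3, a protein that ties chromosomes to the mitotic spindle, was at 0.860, 2.15 and 0.592 CPM in HKO and 5.17, 4.72 and 6.77 CPM in WT (log2 fold change -2.23, SE 0.45, adjusted p = 0.0112). Mrpl57, whose start lies 49 bases away in GENCODE M21 (75 bases lie between the RefSeq starts printed above), was at 9.6, 9.7 and 8.5 CPM in HKO and 7.9, 9.5 and 11.5 CPM in WT (-0.05, adjusted p = 0.846). The neighbour was thus lower in every HKO library, and the ribosomal gene overlapped between the groups. Ncapd2, a subunit of the condensin complex that compacts mitotic chromosomes, was at 7.79, 18.2 and 9.34 CPM in HKO and 34.2, 25.7 and 26.8 CPM in WT (log2 fold change -1.30, SE 0.30, adjusted p = 0.0195). Its neighbour Mrpl51 had a log2 fold change of -0.06. Ska3 missed the threshold without WT 3 (adjusted p = 0.0522), and Ncapd2 without HKO 3 (0.0625), WT 1 (0.0530) or WT 3 (0.0568). Exons of Ska3 overlap Sap18 on the opposite strand.

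The higher neighbours were Klc4, a light chain of the motor protein kinesin beside Mrpl2 (log2 fold change 0.67, adjusted p = 0.00364), and Apba3, an adaptor protein beside Mrpl54 (0.43, adjusted p = 0.0415). Klc4 passed whichever library was left out, and Apba3 passed in 1 of those 6 refits, the one without HKO 2. The neighbours of the 2 called genes did not pass. Sars2, the mitochondrial seryl-tRNA synthetase beside Mrps12, had a log2 fold change of -0.08 (adjusted p = 0.694). Ptcd2, an RNA-binding protein of mitochondria beside Mrps27, had one of 0.03 (adjusted p = 0.883). The log2 ratio of the neighbour to the ribosomal gene within a library was -2.63 ± 0.59 in HKO and -0.74 ± 0.19 in WT for Ska3 over Mrpl57 (SD, n = 3 each). It was -0.091 ± 0.13 in HKO and -0.552 ± 0.0087 in WT for Sars2 over Mrps12. The ratio did not overlap between HKO and WT in 11 of the 18 pairs, against 40% of 530 head-to-head pairs of tested genes. For those 11 the exact two-sided permutation test gave p = 0.1, the smallest possible here.

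**Figure D5:**
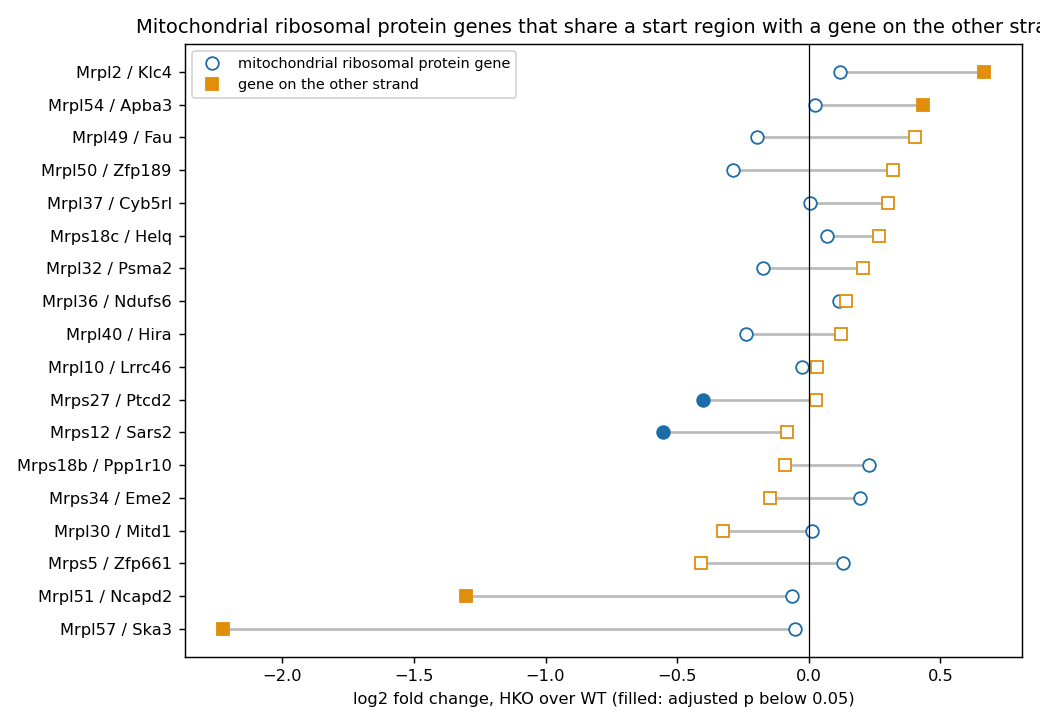
Log2 fold change of HKO over WT (x axis) for 18 ribosomal protein genes (circles) and the gene that starts head to head with each (squares), filled where the adjusted p is below 0.05. Ska3 (-2.23) and Ncapd2 (-1.30) lie far left of Mrpl57 and Mrpl51, which lie near 0.

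The start regions were searched on both strands for short motifs known from promoters of nuclear genes for mitochondrial proteins or of cell cycle genes. The windows run 250 bases before to 50 bases after each RefSeq start. They were found for 68 of the 78 genes and for 27025 genes in all, chromosome 18 left out. These 27025 were not limited to the 12556 genes tested, whereas 77 of the 78 ribosomal protein genes were tested. Shares among tested genes only were not computed. The ETS core CCGGAAG was in 36.8% of the ribosomal protein genes and 9.93% of all genes. The YY1 core ATGGCGGC was in 17.6% and 2.6%, and the NRF-1 core GCATGCGC in 11.8% and 3.05%. The E-box CACGTG was in 7.35% and 8.09%, and the cell cycle element TTTGAA, added after the values of Ska3 were seen, in 19.1% and 20.2%. No motif is contained in another. By subunit, the ETS core was in 14 of 42 large and 11 of 26 small subunit genes, and the NRF-1 core in 7 of 42 and 1 of 26. In the printed sequences, the DNA between Mrps27 and Ptcd2 holds the ETS core on the other strand and that between Mrpl57 and Ska3 holds TTTGAA. The window of Mrps12 reaches past both ends of the printed stretch. It holds an ETS core, and the printed stretch does not. On which side of the stretch that core lies is not given here. A match is a description of these letters and not a bound site.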

How the data were processed

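Liver RNA was sequenced in 3 HKO and 3 WT libraries. HISAT2 2.0.4, StringTie 1.3.0, mm10 and GRCm38.p4 are named in the submitters' processing notes without role or settings. The authors deposited, per the file headers, 34745 genes with a raw count and an FPKM per library. Where every library has at least 50 counts (9308 genes), the FPKM is the count over the column total and over 1 length per gene.

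The counts were tested in R 4.3.3 with edgeR 4.0.16: filterByExpr kept 12556 genes, libraries were scaled by TMM, and the quasi-likelihood F-test compared HKO with WT without a block. P-values were adjusted by the Benjamini-Hochberg method over all genes tested, with a threshold of 0.05. Fold changes are HKO over WT on the log2 scale. The SE of a log2 fold change is its size over the root of F, and 95% intervals use the t distribution with the fit's degrees of freedom. Ratios of neighbouring genes use log2(CPM + 0.5). Named genes are those called, the 12 of smallest p, the 5 highest and 5 lowest by mean FPKM, those that are not protein-coding, the Mrps18 genes, Mrps30 and Mrps36, and up to 4 called genes per list. Genes outside this rule were named after their values were seen. The genes, lists and places in the structure were chosen with earlier results of these data known. Alternatives were DESeq2 1.42.0, limma-voom (limma 3.58.1), RLE scaling, no count filter, no mitochondrial genes, a replicate block and leaving out each library. Their use on lists other than the ribosomal proteins and on single genes of those lists was chosen after seeing the data. The fit was tested on simulated data. A few genes counted in the lists are not reported here by name. Overlaps come from GENCODE M21, which holds all 78 genes, 58 with the same coordinates, and sequences from RefSeq on GRCm38.p6.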

Additional observations from a re-analysis of the deposited data

How the results depend on the processing

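No member was higher in HKO under any of the 12 alternatives to the edgeR test. The members lower in HKO numbered 1 (Mrps12) with no filter on low counts and 1 with the replicate block, and 0 to 4 when each library was left out, against 2. By subunit these were 1, 1 and 0 to 3 in the small subunit, and 0 to 1 when each library was left out in the large. The median log2 fold change ran between -0.136 and 0.013 over all members, -0.14 and 0.0037 in the large and -0.080 and 0.038 in the small subunit when each library was left out, with the lowest value without HKO 1. The 81 genes of mitochondrial gene expression gave 2 higher and 2 lower with the replicate block, and 1 to 7 higher and 1 to 4 lower when each library was left out, against 6 and 4. On FPKM the log2 ratio of small over large subunit sums between HKO and WT was -0.0755, against -0.0070 on CPM. The cause of these shifts was not tested.

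Of 288 refits of single named members 266 kept their direction and side of the threshold, 10 lost the call, 3 gained it and 9 changed sign, all 9 in members with fold changes near 0. Those were Mrps36 (-0.080, -0.090 and -0.025 without HKO 1, WT 1 and WT 3; -0.090 to 0.30 when each library was left out), Mrps10 (-0.062 and -0.0013 without HKO 1 and WT 1; up to 0.15), Mrpl33 (-0.10 and -0.059 without HKO 1 and WT 1; up to 0.10) and Mrps18c (-0.10 and -0.015 without HKO 1 and WT 1; up to 0.19). With the replicate block Mrps27 lost its call (adjusted p = 0.0639) and Mrps12 kept it (0.0487). The labels do not say whether the replicate numbers pair the libraries. Deviations of same-numbered libraries from their group means correlated at -0.0019, 0.0025 and 0.072. With 3 libraries per group these values cannot decide whether the libraries are paired. With the block 1245 genes were called higher and 1115 lower over all genes, against 1516 and 1401. Leaving out a library gave between 722 higher and 682 lower (without WT 3) and 1589 higher and 1546 lower (without HKO 2). Members near 5 CPM or below, such as Mrps36, are limited by depth. Leaving out HKO 2, whose other cell type markers stood apart, kept Mrps12 as the one member called.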
